A study of Mus musculus with 3 samples.

Results

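The 10 genes described here encode the enzymes that write, copy and remove DNA methylation in the mouse, with 3 of their best known cofactors. They are the DNA methyltransferases Dnmt1, Dnmt3a and Dnmt3b, their catalytically inactive relative Dnmt3l, the maintenance factor Uhrf1, the cytosine oxidases Tet1, Tet2 and Tet3, the glycosylase Tdg and the silencing scaffold Trim28. They were taken by name, with no threshold on a measured value, from a list drawn up when earlier results of these data were known, and make up 10 of the 23405 genes in the files. RNA was sequenced from mouse embryonic stem cells that had been differentiated as embryoid bodies, the floating aggregates in which such cells form early germ layers and vessels, and sorted at day 4.75 as endothelium (Tie2+CD31+CD41-). The 3 groups were a line labelled Gata12KO (knockout of Gata1 and Gata2), a line labelled SclKO (knockout of Scl, the blood and endothelial transcription factor whose current symbol is Tal1) and wild type (WT). Each group was 1 library, so no difference below has a replicate check and no p-value is given. The labels state neither how many clones stood behind each line nor whether cultures were pooled.

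Methyl groups on the cytosines of CG pairs are first placed by DNMT3A and DNMT3B, which DNMT3L can assist, and are copied onto the new strand after replication by DNMT1, which UHRF1 brings to half-methylated sites. TET enzymes oxidise the methyl group step by step, and TDG cuts out the most oxidised forms so that base excision repair can put back a plain cytosine. TRIM28 is brought to DNA by zinc finger proteins and gathers the histone methyltransferase SETDB1, and with it helps to keep imprinted loci and retroelements methylated in embryonic cells. In blood, TET2 and DNMT3A are known for the mutations they carry in human myeloid disease.

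The measure is FPKM, the fragments on a transcript divided by its length in kilobases and by the mapped fragments in M (mega), and each value has the lower and upper bound that the authors deposited. For single-transcript genes the bounds lie 2 Poisson standard deviations from the value and cover counting error only. For genes with several transcripts they can be wider, as for Uhrf1 in SclKO, with 42.2 FPKM and bounds of 26.3 to 58.2. No bound covers variation between cultures. A gene's value is the sum over its RefSeq entries, and so are its bounds. The values imply a depth of 50.3, 28.3 and 31.6M fragments in the Gata12KO, SclKO and WT libraries. Ratios are log2((FPKM + 1)/(FPKM + 1)), and this scale makes ratios of weakly expressed genes too small. A gene counts as expressed at 1 FPKM or more in any library, which 11081 genes reached, and is called higher or lower where its ratio is at least 2-fold and the bounds of both libraries stand apart. These words describe the libraries and no wider group.

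Of the knocked-out genes, Tal1 had 38.7 FPKM in the Gata12KO library, 1.59 FPKM in the SclKO library and 51.0 FPKM in the WT library. Gata1 had 5.66 FPKM in the Gata12KO library, was listed at 0 in the SclKO library and had 4.64 FPKM in the WT library, and Gata2 had 44.9, 5.81 and 12.05 FPKM in the same order. Levels over whole genes therefore do not show a loss of Gata1 or Gata2 RNA under the label Gata12KO, and deleted exons were not examined, so this sample is called the library labelled Gata12KO, and Gata12KO alone stands for that label. The sorting genes Tek (Tie2) and Pecam1 (CD31) stood between 42.4 and 66.5 FPKM in the 3 libraries, and Itga2b (CD41) at 17.6, 0.333 and 22.8 FPKM in the Gata12KO, SclKO and WT libraries. Summed over a list of 12 blood genes the level was 38.8 FPKM in the library labelled Gata12KO, 7.59 FPKM in SclKO and 236 FPKM in WT. The sum over 12 endothelial genes was 1100 FPKM in the library labelled Gata12KO, 521 FPKM in SclKO and 1126 FPKM in WT.

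Of the 10 genes, 9 were expressed, and Dnmt3l was not. By FPKM the levels ran from Trim28, above 100 FPKM in every library and between percentiles 95.5 and 97.2 of expressed genes, through Dnmt1 and Uhrf1 between 33 and 47 FPKM, to Tet1 between 2.29 and 4.58 FPKM. In SclKO against WT, 1 of the 9 was called lower and 0 were called higher, where 4.24% of all expressed genes were called lower and 2.12% higher, 6.36% in all. That gene was Tet2. In the library labelled Gata12KO against WT, 0 of the 9 were called in either direction, against a background of 0.767% higher and 3.75% lower, 4.51% in all. Between the library labelled Gata12KO and SclKO, Tet2 alone was called, as higher in Gata12KO, where 3.38% of expressed genes were called higher and 3.75% lower, 7.14% in all. By separation of the bounds alone, 6 of the 9 differed in each of the 3 comparisons, but so did 58.0%, 61.8% and 58.3% of all expressed genes.

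**Figure D1:**
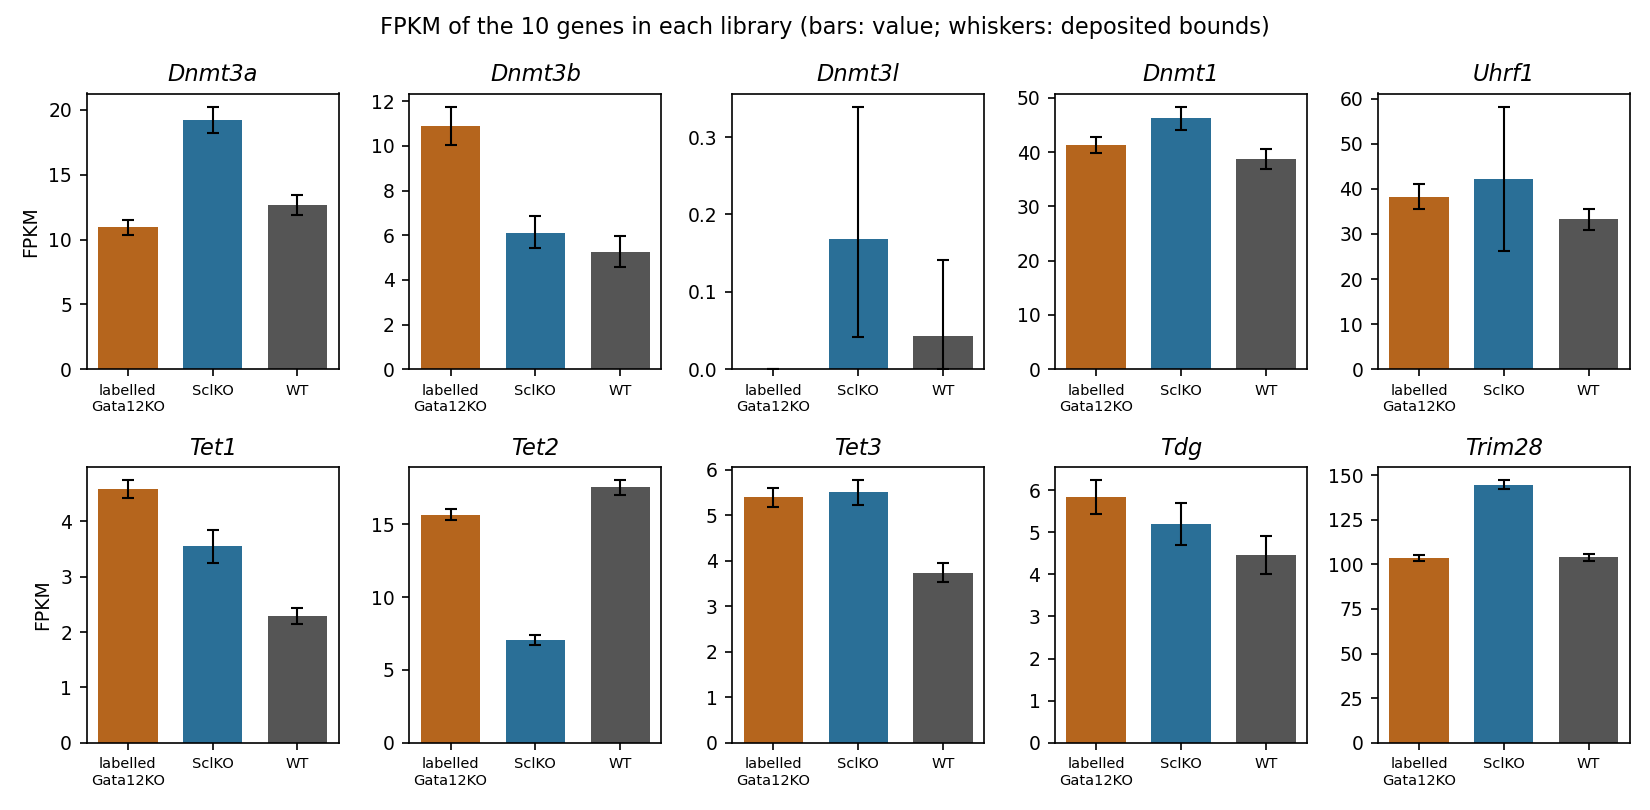
FPKM of the 10 genes in the library labelled Gata12KO, SclKO and WT, 1 library each (vertical axes, each gene on its own scale from 0). Bars are the deposited values and whiskers the deposited bounds, both summed over the entries of a gene. Tet2 is lowest in SclKO at 7.05 FPKM, Dnmt3b is highest in the library labelled Gata12KO at 10.9 FPKM, Dnmt3a and Trim28 are highest in SclKO, and Dnmt3l stays below 0.2 FPKM.

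Tet2, which oxidises methylcytosine and lacks the CXXC domain that its relatives Tet1 and Tet3 carry, was the gene of the set with the widest range. It had 15.7 FPKM (bounds 15.3 to 16.0) in the library labelled Gata12KO, 7.05 FPKM (6.72 to 7.38) in SclKO and 17.5 FPKM (17.0 to 18.0) in WT. SclKO stood apart below the other libraries, and the bounds of Gata12KO and WT also did not overlap. The ratio of SclKO to WT was -1.20 on the log2 scale (bounds -1.30 to -1.11), a level 2.49-fold lower. Of all expressed genes, 4.74% had a ratio at least as large in size in that comparison. Against SclKO the library labelled Gata12KO had 2.22-fold more, a log2 ratio of 1.05, and 6.97% of expressed genes had one at least as large. Against WT its log2 ratio was -0.15 (-0.22 to -0.08), a size that 70.8% of expressed genes reached, and this sign turned to 0.51 when values were rescaled to a common library sum (TPM). About 7111, 1791 and 4988 reads stood behind the values in the Gata12KO, SclKO and WT libraries, so counting error was small beside the difference of SclKO.

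Tet2 has a single RefSeq entry in the files, NM_001040400, on the minus strand at chr3:133126641-133207354 (mm9). The start of that entry lies in a window with 57 CG pairs in 300 bases, a count that 0.152% of 32851 mouse promoters reach; the median promoter has 7. It is shown because CG-dense promoters are the sequences at which methylation is best known to silence genes. The window runs from 250 bases before the start to 50 after it, from RefSeq on GRCm38.p6, minus strand, chr3:133544341-133544640, with CG in capitals.
Tet2: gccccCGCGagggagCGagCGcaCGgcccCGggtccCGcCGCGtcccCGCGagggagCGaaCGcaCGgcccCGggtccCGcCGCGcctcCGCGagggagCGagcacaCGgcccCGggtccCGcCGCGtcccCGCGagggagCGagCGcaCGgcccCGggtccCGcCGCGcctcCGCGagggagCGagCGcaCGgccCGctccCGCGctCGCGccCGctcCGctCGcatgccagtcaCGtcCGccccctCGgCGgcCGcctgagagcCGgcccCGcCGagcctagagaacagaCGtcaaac
The motif GATAA, searched on both strands, was not found in this window or in the other 16 windows of the 10 genes, while 25.4% of all promoters hold it. G and C made up 81.3% of the Tet2 window and between 51.3% and 82.3% of the others. The share of all promoters was not matched for this content, and some windows of Dnmt3a overlap. The motif CANNTG, whose reverse complement is the same motif, was present in 72.3% of promoters. It was absent from the Tet2 window, and also from the upstream windows of Dnmt3a and a window of Dnmt3l.

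Tet1, an oxidase known to be abundant in embryonic stem cells, had 4.58 FPKM (4.42 to 4.74) in the library labelled Gata12KO, 3.55 FPKM (3.25 to 3.84) in SclKO and 2.29 FPKM (2.14 to 2.44) in WT. The level was highest in Gata12KO and lowest in WT, with no overlap of bounds. The log2 ratio was 0.76 for Gata12KO over WT, 2.00-fold without the pseudocount and short of the call with it, and 10.9% of expressed genes had one at least as large in size. It was 0.47 for SclKO over WT and 0.30 for Gata12KO over SclKO. The entry NM_001253857 (minus strand, within chr10:62267318-62342762, mm9) held nearly all of the signal in Gata12KO and WT, and 82.9% of it in SclKO. A second entry, NM_027384, had 0.607 FPKM in SclKO, the other 17.1%, and less than 0.001 FPKM in the other libraries. On NM_001253857 alone the log2 ratio was 0.26 for SclKO over WT and 0.50 for Gata12KO over SclKO.

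Tet3, the oxidase known for its role in the zygote, had 5.39 FPKM (5.20 to 5.59) in the library labelled Gata12KO, 5.51 FPKM (5.24 to 5.78) in SclKO and 3.74 FPKM (3.53 to 3.95) in WT. The bounds of Gata12KO and SclKO overlapped, and both stood above WT. Its log2 ratios over WT were 0.43 in Gata12KO and 0.46 in SclKO. It has 1 entry, NM_183138, on the minus strand at chr6:83312368-83391672 (mm9).

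Within the TET family the 3 libraries differed in make-up. Here and below, the range of a share sets the lower bound of the part against the upper bound of the rest, and the reverse. It is not a confidence interval. Tet2 gave 61.1% of the summed TET FPKM in the library labelled Gata12KO (59.7 to 62.5), 43.8% in SclKO (41.1 to 46.5) and 74.4% in WT (72.7 to 76.1). Tet3 gave 21.04% in the library labelled Gata12KO, 34.2% in SclKO and 15.9% in WT, and Tet1 gave 17.9%, 22.02% and 9.71%. Tet2 was thus the most abundant of the 3 per length of transcript in every library, although in SclKO its level was below the sum of Tet1 and Tet3. These shares are unaffected by scaling between libraries. The summed TET level was 25.6 FPKM in Gata12KO, 16.1 FPKM in SclKO and 23.6 FPKM in WT. Transcripts of Tet1, Tet2 and Tet3 are among the longest of the table, at 14082, 9181 and 10906 nt, and ratios moved with length. Across 10993 genes Spearman's rho between ratio and length was 0.24 for SclKO over WT, 0.45 for Gata12KO over WT and 0.21 for Gata12KO over SclKO, as a description over genes that share a library. The 422 genes of 8000 nt or longer had median log2 ratios of 0.12, 0.17 and 0.09 in these comparisons. With the length trend taken out, Tet2 stood at -1.32 in SclKO against WT, and at 0.97 in Gata12KO against SclKO, just short of the call. In the same setting the ratios of Tet1 over WT were 0.58 in Gata12KO and 0.35 in SclKO, and those of Tet3 were 0.25 in Gata12KO and 0.34 in SclKO.

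**Figure D2:**
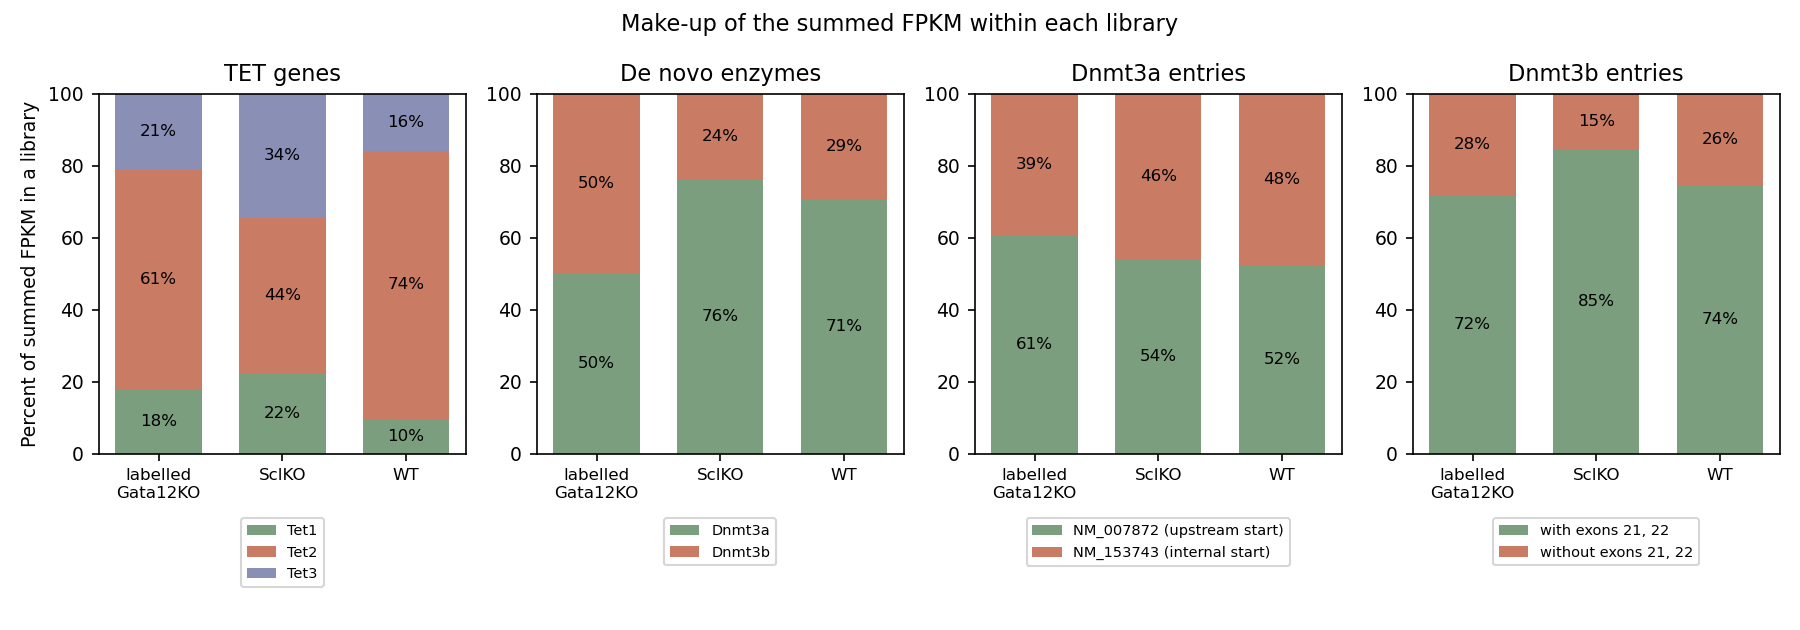
Percent of summed FPKM (vertical axis, 0 to 100) within the library labelled Gata12KO, SclKO and WT for the TET genes, for Dnmt3a and Dnmt3b, and for the entries of Dnmt3a by start and of Dnmt3b by exons 21 and 22, although these entries also differ in other exons. Tet2 takes 61.1%, 43.8% and 74.4% of the TET sum, and Dnmt3b 49.9%, 24.1% and 29.3% of the de novo sum.

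Dnmt3a, a de novo methyltransferase that continues to act in later tissues and in blood stem cells, was highest in SclKO. It had 10.9 FPKM (10.4 to 11.5) in the library labelled Gata12KO, 19.22 FPKM (18.2 to 20.2) in SclKO and 12.7 FPKM (11.9 to 13.5) in WT. None of the bounds overlapped. The log2 ratio was 0.57 for SclKO over WT (bounds 0.41 to 0.72) and -0.76 for Gata12KO over SclKO (-0.90 to -0.62), the size of which 13.0% of expressed genes reached. Neither was called, and the value of -0.76 became 0.00 on the TPM scale, which moved the median of all genes by 0.75 in that comparison. For Gata12KO over WT the log2 ratio was -0.20, and it turned to 0.46 on the TPM scale and to 0.10 when rescaled on transcripts of 300 nt or longer.

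The gene lies on the plus strand at chr12:3806980-3914443 (mm9), and its 2 entries start 84764 bp apart. NM_007872 has the upstream start of the long protein, and NM_153743 the internal start of the short protein known from embryonic stem cells. The long form had 6.64 FPKM in the library labelled Gata12KO, 10.3 FPKM in SclKO and 6.63 FPKM in WT. Its level in Gata12KO differed from WT by less than the bounds. The short form had 4.29 FPKM in Gata12KO (3.98 to 4.61), 8.89 FPKM in SclKO (8.30 to 9.49) and 6.04 FPKM in WT (5.57 to 6.50), with no overlap of bounds. It made up 39.3% of Dnmt3a in Gata12KO (36.6 to 42.0), 46.3% in SclKO (43.6 to 49.0) and 47.7% in WT (44.5 to 50.8), so that SclKO and WT overlapped in this share and Gata12KO stood below them. The entries also differ at the end of the gene, where NM_007872 has 1 exon of 6838 nt and NM_153743 has exons of 181 and 3168 nt in its place, so the share does not measure the use of the starts alone. The 2 starts differ in CG content, with 46 CG pairs upstream, as many as 1.65% of promoters reach, and 18 at the internal start, which 29.7% reach. Both windows are shown to let the starts be compared, from RefSeq on GRCm38.p6, plus strand, at chr12:3806730-3807029 and chr12:3891494-3891793, with CG in capitals.
Dnmt3a upstream start: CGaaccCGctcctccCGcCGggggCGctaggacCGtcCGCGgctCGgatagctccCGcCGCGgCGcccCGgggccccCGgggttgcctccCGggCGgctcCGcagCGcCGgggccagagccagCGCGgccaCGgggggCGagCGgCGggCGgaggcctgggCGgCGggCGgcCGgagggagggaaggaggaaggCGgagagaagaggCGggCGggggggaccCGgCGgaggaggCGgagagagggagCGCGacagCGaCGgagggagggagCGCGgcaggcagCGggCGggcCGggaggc
Dnmt3a internal start: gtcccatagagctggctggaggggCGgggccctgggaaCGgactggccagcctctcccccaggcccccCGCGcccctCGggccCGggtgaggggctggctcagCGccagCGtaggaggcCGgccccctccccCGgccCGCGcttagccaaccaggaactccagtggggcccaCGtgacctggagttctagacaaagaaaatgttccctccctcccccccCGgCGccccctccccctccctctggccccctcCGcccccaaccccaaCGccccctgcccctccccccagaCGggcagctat
An antisense RNA within the locus, Dnmt3aos, had at most 0.0596 FPKM in any library.

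Dnmt3b, the de novo enzyme of the epiblast and early embryo, was highest in the library labelled Gata12KO. It had 10.9 FPKM (10.1 to 11.8) there, 6.11 FPKM (5.41 to 6.87) in SclKO and 5.24 FPKM (4.58 to 5.95) in WT. Bounds of SclKO and WT overlapped, and Gata12KO stood above both. Over WT the log2 ratio was 0.93 (0.67 to 1.19), which is 2.08-fold without the pseudocount, and 6.33% of expressed genes had one at least as large in size. It narrowly missed the call and passed it with a pseudocount of 0.1 FPKM, at 1.04. On the TPM scale it passed at 1.60, but that scale moved the median of all genes by 0.64 in this comparison. The ratio was 0.89 with the length trend taken out and 0.85 on the entry with the highest FPKM alone. Over SclKO the log2 ratio was 0.74. The share of Dnmt3b in the sum of Dnmt3a and Dnmt3b was 49.9% in Gata12KO (46.6 to 53.2), 24.1% in SclKO (21.1 to 27.4) and 29.3% in WT (25.4 to 33.4). The sum of both enzymes was 21.8 FPKM in Gata12KO, 25.3 FPKM in SclKO and 17.9 FPKM in WT.

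Of the 5 entries of Dnmt3b (plus strand, chr2:153475190-153513466, mm9), NM_001122997 and NM_001003963 carried nearly all of the signal. The first holds exons 21 and 22 of 70 and 119 nt, and the second lacks them. The second also has an exon of 115 nt near the start of the gene that the first lacks, and an exon of 85 nt where the first has 88 nt, so the split between them does not rest on exons 21 and 22 alone. Together exons 21 and 22 span 189 nt, or 63 codons, and forms without them lack part of the catalytic domain. Both junctions are shown, since forms without these exons are known to be catalytically inactive; they were read from GRCm38, plus strand, within chr2:153683608-153684477, with 15 nt of the flanking exons in lower case and exons 21 and 22 in capitals.
Dnmt3b with exons 21 and 22: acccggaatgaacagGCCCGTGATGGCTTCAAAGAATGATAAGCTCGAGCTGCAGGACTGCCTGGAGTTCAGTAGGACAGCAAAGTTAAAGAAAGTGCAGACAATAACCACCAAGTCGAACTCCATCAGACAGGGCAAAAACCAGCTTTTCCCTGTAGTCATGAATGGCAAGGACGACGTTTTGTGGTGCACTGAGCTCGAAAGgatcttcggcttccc
Dnmt3b without exons 21 and 22: acccggaatgaacaggatcttcggcttccc
Entries without the exons summed to 3.08 FPKM in the library labelled Gata12KO (2.68 to 3.48), 0.940 FPKM in SclKO (0.693 to 1.20) and 1.35 FPKM in WT (1.08 to 1.64). NM_001122997 had 7.82, 5.17 and 3.89 FPKM in the same order. The forms without the exons made up 28.3% of Dnmt3b in Gata12KO (24.5 to 32.0), 15.4% in SclKO (10.9 to 20.3) and 25.8% in WT (20.01 to 31.9). The range of SclKO lay below that of Gata12KO and met that of WT at its edge. Entries of a gene share exons, so these splits rest on how Cufflinks divided 50 nt reads between them.

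Dnmt3l, the inactive partner of the de novo enzymes known from germ cells and embryonic stem cells, was listed at 0 in the library labelled Gata12KO, and had 0.168 FPKM (0.0411 to 0.339) in SclKO and 0.0427 FPKM (0 to 0.142) in WT. The bounds of SclKO and WT overlapped, and no ratio is given for a gene at this level. Its entries lie on the plus strand within chr10:77505032-77526360 (mm9). RefSeq gives 3 starts, with 6, 4 and 3 CG pairs in their windows, counts that 56.4%, 68.6% and 76.7% of promoters reach. Aire runs antisense over 1294 bp of Dnmt3l and had 0.0789 FPKM in Gata12KO, 0.184 FPKM in SclKO and 0.0544 FPKM in WT. No source used here says whether strand was counted, so reads of the overlap cannot be told apart.

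Dnmt1, which copies methylation at replication, had 41.3 FPKM (39.8 to 42.7) in the library labelled Gata12KO, 46.2 FPKM (44.1 to 48.4) in SclKO and 38.7 FPKM (36.8 to 40.5) in WT. Bounds of Gata12KO and WT overlapped, and SclKO stood above both. The log2 ratio was 0.09 for Gata12KO over WT, 0.25 for SclKO over WT and -0.16 for Gata12KO over SclKO, sizes that more than 50% of expressed genes reached in each comparison. Of its 4 entries (minus strand, chr9:20711650-20757423, mm9, for the main pair), NM_010066 had 22.3 FPKM in Gata12KO, 26.4 FPKM in SclKO and 22.8 FPKM in WT. NM_001199431, which differs by 3 nt in 1 exon, had 18.5, 19.09 and 14.4 FPKM in the same order. NM_001199432, with a start 6909 bp upstream, had less than 0.001 FPKM in all 3 libraries. NM_001199433, whose start lies 356 bp inside the gene, had 0.456 FPKM in Gata12KO (0.348 to 0.564), 0.717 FPKM in SclKO (0.467 to 0.967) and 1.41 FPKM in WT (1.17 to 1.65), so that WT stood above both other libraries in this entry.

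Uhrf1, the ubiquitin ligase that reads half-methylated CG pairs and brings DNMT1 to them, had 38.3 FPKM (35.4 to 41.1) in the library labelled Gata12KO, 42.2 FPKM (26.3 to 58.2) in SclKO and 33.2 FPKM (31.0 to 35.5) in WT. The bounds of all 3 libraries overlapped. Uhrf1 made up 48.1% of the sum of Dnmt1 and Uhrf1 in Gata12KO, 47.7% in SclKO and 46.2% in WT, and these ranges overlapped as well. The gene lies on the plus strand at chr17:56442760-56462909 (mm9), with 4 entries from 2 starts 976 bp apart that also differ by 24 nt in 1 exon. The longer and the shorter form are shown because their estimated shares differed between WT and the other libraries; they were read from GRCm38, plus strand, at chr17:56313041-56313064, with the 24 nt in capitals between 15 nt on either side.
Uhrf1 longer exon: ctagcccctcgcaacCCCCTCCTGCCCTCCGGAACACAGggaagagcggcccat
Uhrf1 shorter exon: ctagcccctcgcaacggaagagcggcccat
Entries with the 24 nt made up 36.9% of Uhrf1 in Gata12KO (33.2 to 40.5), 42.9% in SclKO (24.2 to 61.9) and 4.05% in WT (2.62 to 5.61). WT stood below both other libraries in this share. NM_001111080, which lacks the 24 nt, had 14.5 FPKM in Gata12KO, 14.9 FPKM in SclKO and 23.7 FPKM in WT. Taken alone, this top entry had a log2 ratio of -0.64 for SclKO over WT, against 0.34 for the gene. The upstream start gave 40.2% in Gata12KO (36.4 to 43.9), 38.5% in SclKO (26.7 to 60.7) and 25.7% in WT (22.7 to 28.8). Both splits rest on how Cufflinks divided reads between 4 entries that differ in start and in the 24 nt together. In SclKO this division was uncertain, with bounds of 4.06 to 18.1 around 11.1 FPKM for NM_001111078.

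Tdg, the glycosylase that removes formylcytosine and carboxylcytosine, had 5.83 FPKM (5.44 to 6.24) in the library labelled Gata12KO, 5.19 FPKM (4.69 to 5.70) in SclKO and 4.45 FPKM (4.02 to 4.90) in WT. SclKO overlapped both of the other libraries, and Gata12KO stood above WT with a log2 ratio of 0.33. Nearly all of the signal was on NM_172552 (plus strand, within chr10:82092583-82113239, mm9). The annotated copy Tdg-ps2, which overlaps on the same strand, had at most 0.0432 FPKM. The value of Tdg is uncertain in so far as reads could be split with near-identical copies.

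Trim28 was the most abundant of the 10 genes per length of transcript, with 104 FPKM (102 to 105) in the library labelled Gata12KO, 145 FPKM (142 to 147) in SclKO and 104 FPKM (102 to 106) in WT. Gata12KO and WT overlapped, and SclKO stood above both. The log2 ratio was 0.47 for SclKO over WT, a size that 28.2% of expressed genes reached, and -0.48 for Gata12KO over SclKO, which turned to 0.34 on the TPM scale. It has 1 entry, NM_011588, on the plus strand at chr7:13609501-13616381 (mm9).

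**Figure D3:**
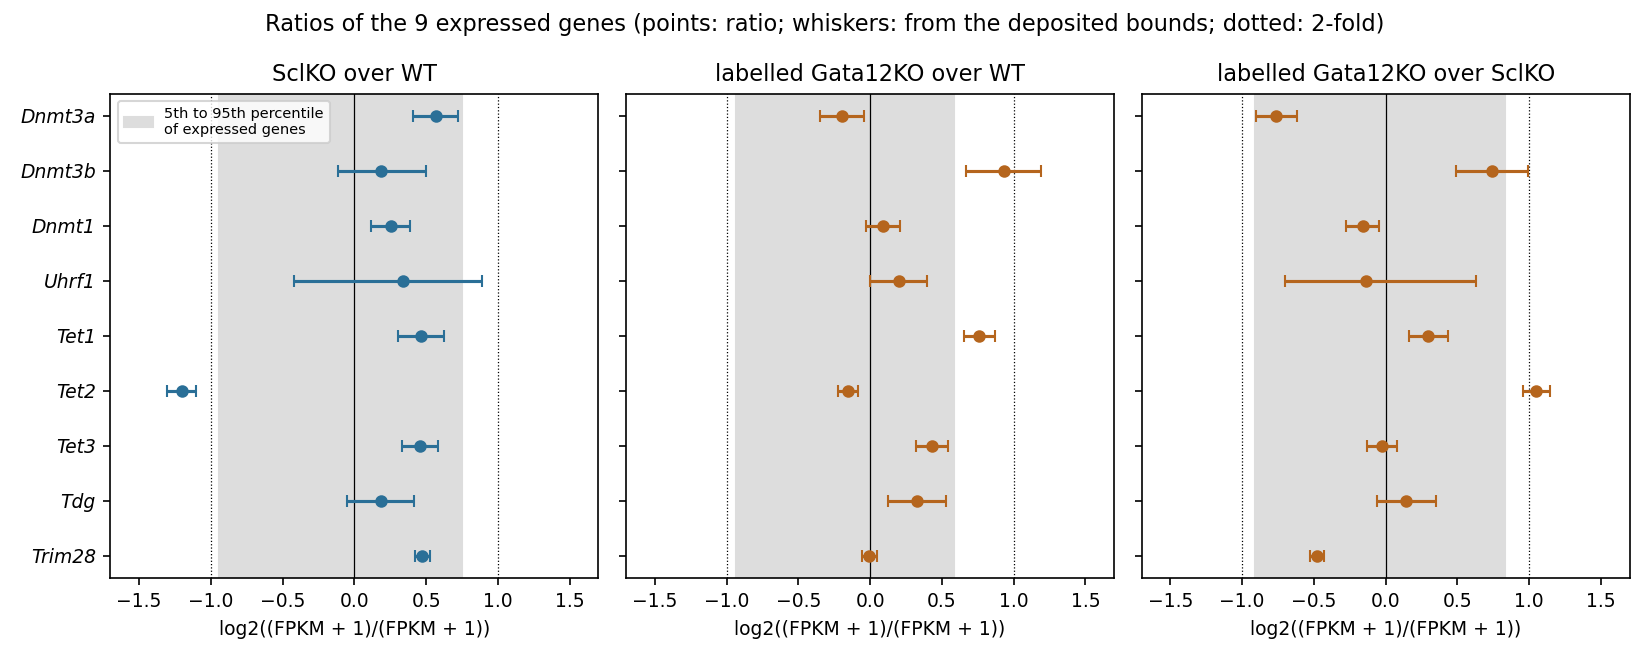
Log2((FPKM + 1)/(FPKM + 1)) (horizontal axis) of the 9 expressed genes for SclKO over WT, the library labelled Gata12KO over WT and the library labelled Gata12KO over SclKO; points are ratios, whiskers follow from the deposited bounds, dotted lines mark 2-fold and the grey band the 5th to 95th percentile of 11081 expressed genes. Tet2 passes the line at -1.20 in SclKO over WT and at 1.05 in Gata12KO over SclKO, and Dnmt3b lies just inside it at 0.93 in Gata12KO over WT.

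As a group, the 9 expressed genes had a median log2 ratio of 0.34 in SclKO over WT, where all expressed genes had -0.03. Of the 6 genes with separate bounds in that comparison, 5 were on the higher side (Dnmt1, Dnmt3a, Tet1, Tet3 and Trim28), and Tet2 was on the lower, where 26.3% and 31.6% of expressed genes stood apart on those sides. In the library labelled Gata12KO over WT the median was 0.20 against -0.08 for all expressed genes, with 4 genes on the higher side (Dnmt3b, Tet1, Tet3 and Tdg) and 2 on the lower (Dnmt3a and Tet2), and a background of 24.2% and 37.6%. In Gata12KO over SclKO the median was -0.03 against -0.06 for all expressed genes, with Dnmt3b, Tet1 and Tet2 on the higher side and Dnmt1, Dnmt3a and Trim28 on the lower, and a background of 24.8% and 33.5%. On the TPM scale the medians of the 9 genes became 0.22 in SclKO over WT, 0.88 in Gata12KO over WT and 0.70 in Gata12KO over SclKO, while those of all expressed genes became -0.14, 0.52 and 0.66. Rescaled on transcripts of 300 nt or longer they were 0.49, 0.51 and 0.13, against 0.10, 0.20 and 0.09 for all expressed genes. The comparisons share libraries, so they are set side by side and not counted as independent.

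The level of a gene in a sorted population follows from both the number of cells of a type and the RNA in each, which cannot be told apart here. The endothelial list had 6 of 12 genes called lower in SclKO against WT, 2 called higher in the library labelled Gata12KO against WT and 8 called higher in Gata12KO against SclKO. All 12 reached 1 FPKM in every library. Of all expressed genes, 4.24% were called lower and 2.12% higher in SclKO against WT. The shares were 3.75% lower and 0.767% higher in Gata12KO against WT, and 3.75% lower and 3.38% higher in Gata12KO against SclKO. Of 12 blood genes, 11 were called lower in SclKO against WT and 10 in Gata12KO against WT, and Ptprc (CD45), which marks white blood cells, stood at or near 0 in all 3 libraries. Lists of other cell types also differed between the libraries. A list of 8 mesenchymal genes summed to 30.7 FPKM in the library labelled Gata12KO, 157 FPKM in SclKO and 77.3 FPKM in WT. Of these genes, 4 were called higher in SclKO against WT, 2 lower in Gata12KO against WT and 7 lower in Gata12KO against SclKO. A list of 8 cardiac genes summed to 92.0 FPKM in Gata12KO, 267 FPKM in SclKO and 139 FPKM in WT. Hand1 was the gene of that list called higher in SclKO against WT, with 61.7 FPKM in Gata12KO, 209 FPKM in SclKO and 72.2 FPKM in WT, while Hand2 had 19.4, 43.1 and 54.5 FPKM in the same order and no other gene of the list passed 7.03 FPKM. A list of 18 S phase and proliferation genes, to which the cell-cycle regulated Dnmt1 and Uhrf1 are known to be tied, summed to 987 FPKM in Gata12KO, 1073 FPKM in SclKO and 966 FPKM in WT, with 0 genes called in any comparison. Pluripotency and epiblast genes, of which 9 of 14 were expressed, summed to 60.4 FPKM in Gata12KO, 40.5 FPKM in SclKO and 68.6 FPKM in WT. Their defining members Pou5f1 (3.02, 2.32 and 2.48 FPKM) and Nanog (0.362, 0.438 and 0.423 FPKM) differed by less than their bounds, while Dppa4 had 9.96, 2.28 and 25.2 FPKM in that order. Lin28a had 23.6, 17.2 and 14.0 FPKM, and Lin28b 14.4, 6.65 and 11.2 FPKM, both highest in Gata12KO. In Gata12KO against WT, 2 genes of this list were called lower and 0 higher. Of 6 primordial germ cell genes, 0 reached 1 FPKM, a level that 11081 of all 23405 genes reached. The part of these cell types in the levels of Tet2, Dnmt3a and Dnmt3b was not tested.

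The other genes of the pathway are set beside the shares called among all expressed genes, 6.36% in SclKO against WT, 4.51% in Gata12KO against WT and 7.14% in Gata12KO against SclKO. Among partners of the de novo enzymes, 3 of 4 were expressed and 0 were called, with median log2 ratios of 0.48, 0.32 and -0.09 for SclKO over WT, Gata12KO over WT and Gata12KO over SclKO. Ehmt2, the histone methyltransferase G9a, had 19.4 FPKM in the library labelled Gata12KO, 28.7 FPKM in SclKO and 20.3 FPKM in WT, Ehmt1 had 13.6, 14.5 and 10.0 FPKM, and Nsd1 had 10.8, 11.2 and 8.45 FPKM. Of 8 maintenance partners 0 were called, with medians of 0.20, 0.09 and 0.08. Among them the replication clamp Pcna had 194 FPKM in Gata12KO, 166 FPKM in SclKO and 227 FPKM in WT, the deubiquitinase Usp7 had 18.0, 15.7 and 11.7 FPKM, and the chromatin remodeller Hells had 14.2, 13.7 and 10.1 FPKM.

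A list of 6 genes, drawn up as TET partners and cofactor supply whatever their direction of action, gave 0 calls. Its medians were -0.03, -0.07 and 0.03. Idh2, which makes the cofactor 2-oxoglutarate in mitochondria, had 80.3 FPKM in the library labelled Gata12KO, 120 FPKM in SclKO and 134 FPKM in WT. The CXXC protein gene Cxxc5 had 26.7, 19.4 and 16.2 FPKM, and the TET-binding glycosyltransferase gene Ogt had 38.2, 26.0 and 27.5 FPKM in the same order. Of 12 partners of TRIM28, 0 were called, with medians of 0.32, 0.21 and -0.13. Chd4, the remodelling subunit of the NuRD complex, had 54.9 FPKM in Gata12KO, 75.7 FPKM in SclKO and 46.1 FPKM in WT, and the heterochromatin protein gene Cbx3 had 79.5, 69.0 and 49.1 FPKM. Atf7ip, which encodes a partner of SETDB1, had 13.5 FPKM in Gata12KO, 17.7 FPKM in SclKO and 21.2 FPKM in WT.

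A list of 14 base excision repair and related genes, among them other glycosylases and Gadd45 genes, held 1 called gene in each comparison. Its medians were 0.01, -0.34 and -0.16. Apex1, the endonuclease that cuts at the site a glycosylase leaves, had 28.3 FPKM (26.7 to 29.8) in the library labelled Gata12KO, 87.9 FPKM (84.4 to 91.4) in SclKO and 81.5 FPKM (78.2 to 84.8) in WT. It was called lower in Gata12KO against WT, at -1.49, and against SclKO, at -1.60. Gadd45g, a stress response gene linked to active demethylation, had 87.2 FPKM in Gata12KO, 46.4 FPKM in SclKO and 120 FPKM in WT, and was called lower in SclKO against WT at -1.35. Among the uncalled genes of the list, the glycosylase gene Neil3 had 7.54 FPKM in Gata12KO, 10.6 FPKM in SclKO and 12.7 FPKM in WT, the repair polymerase gene Polb had 15.1, 21.9 and 22.6 FPKM, and the scaffold gene Xrcc1 had 11.7, 17.3 and 13.6 FPKM. A list of 8 methyl-CpG readers and related genes shares Mbd4 with the previous list. Its called gene was Mbd2, which links methylated DNA to the NuRD complex. Mbd2 had 12.1 FPKM in Gata12KO, 18.0 FPKM in SclKO and 27.1 FPKM in WT. It was called lower in Gata12KO against WT, at -1.10, and its ratio was -0.90 with the length trend taken out, which ends the call. Mbd3, a subunit of the NuRD complex, had 44.1 FPKM in Gata12KO, 62.2 FPKM in SclKO and 45.0 FPKM in WT. With the length trend taken out, Apex1 stood at -1.10 and -1.42 and Gadd45g at -1.09.

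The cycle that supplies the methyl donor held 0 called genes of 12, with medians of 0.05, 0.19 and -0.05. Mthfd2, a mitochondrial enzyme of folate metabolism, had 13.7 FPKM in the library labelled Gata12KO, 20.3 FPKM in SclKO and 10.3 FPKM in WT. Methionine synthase, Mtr, had 5.23, 3.82 and 2.54 FPKM, and the serine hydroxymethyltransferase gene Shmt2 had 45.9, 61.7 and 37.5 FPKM in the same order. A list of 20 germline genes that promoter methylation is known to keep silent had 19 in the files, and 0 of the 19 reached 1 FPKM in any library. Of all 23405 genes, 11081 reached that level. They summed to 1.21 FPKM in Gata12KO, 2.03 FPKM in SclKO and 2.71 FPKM in WT, and 5 of them were listed at 0 throughout. Methylation itself was not measured in these samples.

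**Figure D4:**
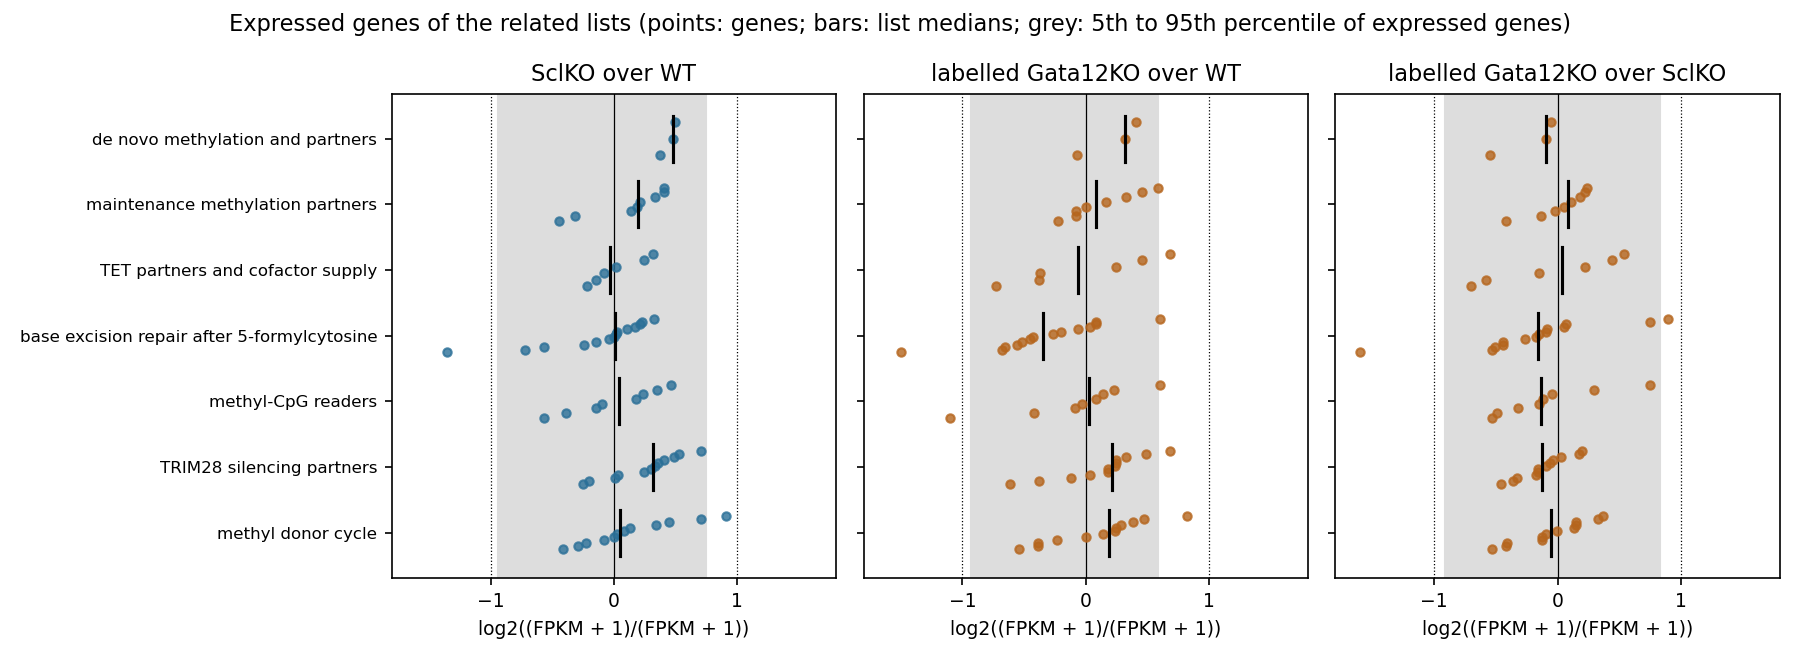
Log2((FPKM + 1)/(FPKM + 1)) (horizontal axes) of each expressed gene (points) of 7 related lists (rows) in the 3 comparisons; black bars are list medians, dotted lines mark 2-fold and the grey band the 5th to 95th percentile of expressed genes. Most points lie inside the band. Gadd45g at -1.35 in SclKO over WT, and Apex1 at -1.49 and -1.60 in the comparisons of Gata12KO, stand outside it to the left. So does Mbd2 at -1.10 in Gata12KO over WT. To the right stand Mthfd2 at 0.91 in SclKO over WT and Gadd45g at 0.90 in Gata12KO over SclKO. Mtr, Cbx3, Cxxc5 and Mbd4 also stand there in Gata12KO over WT.

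By the pair of ratios over WT, the gene most like Tet2 was Ssx2ip, which encodes a centrosome and cell junction protein, at a distance of 0.034 on the log2 scale. It had 10.2 FPKM in the library labelled Gata12KO, 4.61 FPKM in SclKO and 11.7 FPKM in WT. Next came Cav1, the main protein of caveolae, with 4.28, 1.67 and 5.05 FPKM at a distance of 0.049, and Cd47, a surface protein that phagocytes read, with 33.3, 16.8 and 38.4 FPKM at 0.074. Of 7604 genes of at least 5 FPKM, 7 lay within 0.1 of Tet2. The likeness rests on 3 libraries only.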

How the data were processed

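RNA of 3 sorted endothelial populations, 1 library each, was prepared with the Encore Complete RNA kit of Nugen and read at 50 nt, per the labels' protocols. The submitters' processing notes list TopHat2 2.0.4, Cufflinks 2.0.1, Cuffdiff, mm9 and hg19 and give no roles. The deposited values are FPKM with bounds, from Cufflinks by the source column of the files, and were used with no further scaling. Entry coordinates are as deposited by the authors, on mm9, the mouse build of those notes, and other coordinates are GRCm38.

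Accessions were matched to symbols through the RefSeq table (28975 of 29553) and GENCODE (173). A set of 136 entries with another accession in 1 file was joined by position and exon structure, and 132 entries were left out. Entries were summed per gene. Depth was solved from the bounds, and at least 99.5% of single-transcript entries lay within 1% of the solution. Named partners were those called, then up to 3 of the largest ratios at 5 FPKM or more. The genes and lists were chosen with earlier results of these data known. Alternatives were the pseudocount, the minimum FPKM, the fold limit, scaling, transcript length and the top entry. Calculations used Python 3.11.15 with pandas 2.3.3.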

Additional observations from a re-analysis of the deposited data

How the results depend on the processing

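No paired analysis was possible because each group is 1 library, and no library could be left out. Tet2 was called lower in SclKO against WT under all 8 alternatives, with log2 ratios between -1.33 and -1.14 where these were recomputed. In the library labelled Gata12KO against WT, where 0 of the genes were called, a pseudocount of 0.1 FPKM or rescaling by median ratios gave 1 (Dnmt3b), transcripts of 300 nt or longer or a 1.5-fold limit 2 (with Tet1), and TPM 3 (with Tet3). In Gata12KO against SclKO, where Tet2 was called, TPM gave 3 (with Dnmt3b and Tet1), a 1.5-fold limit 3 (with Dnmt3b, and Dnmt3a as lower) and removal of the length trend 0. Of 180 recomputed ratios of the genes, 21 changed sign, each of an uncalled value. TPM moved the median of all genes by -0.11, 0.64 and 0.75 in SclKO against WT, Gata12KO against WT and Gata12KO against SclKO, rescaling on transcripts of 300 nt or longer by 0.14, 0.30 and 0.16.

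Over all genes in SclKO against WT, 235 were called higher and 470 lower. A pseudocount of 0.1 FPKM gave 475 and 744, a 1.5-fold limit 873 and 1248, and transcripts of 300 nt or longer 641 higher. In Gata12KO against WT the counts were 85 and 415. They became 230 and 714 with the pseudocount, 531 and 1550 with 1.5-fold, 1351 and 118 with TPM, 156 and 169 without the length trend, and 550 higher on transcripts of 300 nt or longer. In Gata12KO against SclKO the counts were 375 and 416. They became 595 and 690 with the pseudocount, 871 and 1255 with 1.5-fold, 2174 and 122 with TPM, and 833 higher on transcripts of 300 nt or longer. The cause was not tested. At these depths the bounds of Dnmt3l in SclKO and WT overlapped.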
